A study of Mus musculus with 16 samples.

Results

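The synthesis and transport of glutamate and GABA, the principal excitatory and inhibitory transmitters of the brain, were followed through 7 genes in the hippocampus of *Mef2c*-het and wild-type (WT) mice. The genes were *Slc17a6*, *Slc17a7*, *Slc32a1* (Viaat in the deposited table), *Gad1*, *Gad2*, *Slc6a11* (Gabt4 in that table) and *Abat*. This list was chosen with earlier results of these data known, and its probes were taken by name or Entrez gene number. These genes are 7 of the 17871 genes of the array and were read by 10 of its 25697 probes. Total RNA was hybridised to Illumina MouseRef-8 v2 beadchips, 1 array for each of 16 mice, and there were 4 mice of each genotype at postnatal day 1 (P1) and 4 of each at P30. *Mef2c*-het mice, which the labels call KO, were C57BL/6J mice with 1 conventional exon 2-deleted allele of *Mef2c*, the gene of a MADS-family transcription factor of neurons. They came from crosses with their WT littermates, and no cell type was targeted. None of the 16 mice has a treatment in the labels, which also give no sex, litter or chip, so that the p-values measure the spread between these mice. The comparisons ask whether loss of 1 *Mef2c* allele goes with a change in these transcripts at either age, and how the transcripts differ between the ages.

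Glutamate is loaded into synaptic vesicles by vesicular glutamate transporters. VGLUT1, the product of *Slc17a7*, is the main form of mature cortical and hippocampal pyramidal and granule cells, while VGLUT2, the product of *Slc17a6*, is known from thalamic and other subcortical neurons and from immature hippocampal neurons. GABA is made from glutamate by the glutamate decarboxylases GAD67 (*Gad1*) and GAD65 (*Gad2*) and is loaded into vesicles by VGAT (*Slc32a1*). It is cleared from the extracellular space in part by GAT-3 (*Slc6a11*), a transporter of astrocytes, and is broken down by GABA transaminase (*Abat*).

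The start regions of 4 members are shown because their transcripts moved in opposite directions (*Slc17a6* and *Slc17a7*) or together (*Slc32a1* and *Gad1*) between the ages. Each sequence is from RefSeq on GRCm38.p6, plus strand, 250 bases before to 50 bases after an annotated start, and capitals mark a GC box (GGGCGG) or a TATA box (TATAAA) on either strand. The regions are chr7:51621580-51621879 for *Slc17a6*, chr7:45163671-45163970 for *Slc17a7*, chr2:158610508-158610807 for *Slc32a1* and chr2:70561879-70562178 for *Gad1*.
Slc17a6: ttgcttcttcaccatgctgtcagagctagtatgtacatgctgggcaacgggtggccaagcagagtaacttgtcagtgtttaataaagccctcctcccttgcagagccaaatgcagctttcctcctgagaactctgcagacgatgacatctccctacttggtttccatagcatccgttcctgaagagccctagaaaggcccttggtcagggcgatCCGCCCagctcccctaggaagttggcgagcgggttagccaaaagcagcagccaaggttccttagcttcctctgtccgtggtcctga
Slc17a7: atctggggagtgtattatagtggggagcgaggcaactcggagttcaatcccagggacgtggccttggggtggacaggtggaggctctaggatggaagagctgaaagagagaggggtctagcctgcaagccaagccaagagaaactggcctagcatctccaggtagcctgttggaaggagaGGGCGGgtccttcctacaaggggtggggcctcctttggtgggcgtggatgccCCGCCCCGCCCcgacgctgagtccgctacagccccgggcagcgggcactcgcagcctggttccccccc
Slc32a1: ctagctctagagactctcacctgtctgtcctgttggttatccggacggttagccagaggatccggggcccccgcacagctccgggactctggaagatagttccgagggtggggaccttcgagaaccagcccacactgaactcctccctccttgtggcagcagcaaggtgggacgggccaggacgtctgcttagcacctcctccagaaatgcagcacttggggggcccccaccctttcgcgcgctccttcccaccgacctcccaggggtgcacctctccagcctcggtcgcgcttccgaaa
Gad1: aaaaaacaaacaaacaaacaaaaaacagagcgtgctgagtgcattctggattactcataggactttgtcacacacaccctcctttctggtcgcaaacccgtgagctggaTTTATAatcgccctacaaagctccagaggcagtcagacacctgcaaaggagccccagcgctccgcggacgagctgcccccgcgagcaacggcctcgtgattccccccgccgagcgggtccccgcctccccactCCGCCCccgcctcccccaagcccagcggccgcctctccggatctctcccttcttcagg
A GC box was found once in the *Slc17a6* region, 3 times in that of *Slc17a7*, where 2 of the matches overlap by 1 base, once in that of *Gad1* and not in that of *Slc32a1*. A TATA box was found in the *Gad1* region, on the minus strand. The letters TGACG, part of the cyclic AMP response element, were searched as well and occur in none of these 4 regions. Of all 32851 RefSeq promoters of this length, 35.7% hold a GC box, 13.6% a TATA box and 20.8% TGACG. The MEF2 consensus, searched on both strands, was in none of the 7 regions listed for 6 of the 7 genes and is in 3.19% of all promoters, and no region was listed for *Abat*. CG dinucleotides numbered 8 in the *Slc17a6* region, 13 in that of *Slc17a7*, 17 in that of *Slc32a1* and 21 in that of *Gad1*, against a median of 7 over all promoters. In this order, 51.4%, 62.1%, 68.6% and 75.2% of all promoters held fewer. The most CG dinucleotides of the members were in the region of *Slc6a11*, with 32. A second region listed for *Slc17a6*, chr7:51624387-51624686, is not shown, and it held 3 CG dinucleotides, no GC box and a match to TGACG. The genes themselves lie on chromosome 7 (*Slc17a6*, 51621830 to 51671126, and *Slc17a7*, 45163921 to 45176139), chromosome 2 (*Gad2*, 22621015 to 22693877, *Gad1*, 70561303 to 70602014, and *Slc32a1*, 158607260 to 158615747), chromosome 6 (*Slc6a11*, 114131241 to 114249886) and chromosome 16 (*Abat*, 8513429 to 8621568). The position of a probe within its gene was not used here.

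The number of detected probes (detection p under 0.05) was 12638 to 14150 per array, and the median number of beads behind a probe was 36 to 39. The arrays formed 2 clusters at each age by the correlation of their log2 signals. The smaller cluster held WT replicates 6 and 7 and *Mef2c*-het replicate 7 at P30 and replicate 8 of each genotype at P1, and its arrays had a higher background (5th percentile of the intensity 143.8 to 158.4 against 105.8 to 124.6 at P30). The targeted gene was checked with its probes ILMN_2887992 and ILMN_2732465, while the third, ILMN_1214950, was detected on 2 arrays and was not tested. At P30, *Mef2c* ILMN_2887992 had log2 signals of 8.58, 8.56, 8.92 and 8.66 in WT and of 8.13, 8.39, 8.13 and 8.91 in *Mef2c*-het mice. The fourth of these *Mef2c*-het values is from the array labelled *Mef2c*-het replicate 7, which lay among the WT arrays with this probe and above all of them with ILMN_2732465, at 9.87 against 9.56 to 9.75. With ILMN_2887992 the arrays of the smaller cluster had the highest values at P30 (8.66, 8.91 and 8.92) and at P1 (8.51 and 8.82). With ILMN_2732465 the WT arrays of that cluster at P30 lay within the range of the other WT arrays. The part of the cluster in these values was not tested. The log2 fold changes of the probes were -0.29 (standard error 0.17) and -0.24 (standard error 0.19) at P30 and 0.07 and -0.01 at P1, and neither passed the adjusted threshold. Whether these probes read the deleted exon is not given in the sources used here, so that they are a weak check of the labels. The P30 differences of the members are given with and without *Mef2c*-het replicate 7, and without it the *Mef2c* differences at P30 were -0.47 and -0.39. Leaving it out removes the only *Mef2c*-het array of the smaller cluster at P30, while WT replicates 6 and 7 of that cluster remain.

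A total of 8 probes of 6 genes were detected with a detection p under 0.05 on all 16 arrays, and these were tested in every comparison. The probe of *Gad2*, ILMN_2668908, was detected on 0 of 16 arrays, with intensities of 107.7 to 166.4 at the level of the background and detection p-values of 0.251 or more. *Abat* ILMN_2752146 was detected on 2 of 16 arrays. Neither was tested, and nothing can be said here of the level of the *Gad2* transcript. The signals of the members that were tested ranged from 322.0 to 11228 before normalization, read from 23 to 54 beads each.

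**Figure D1:**
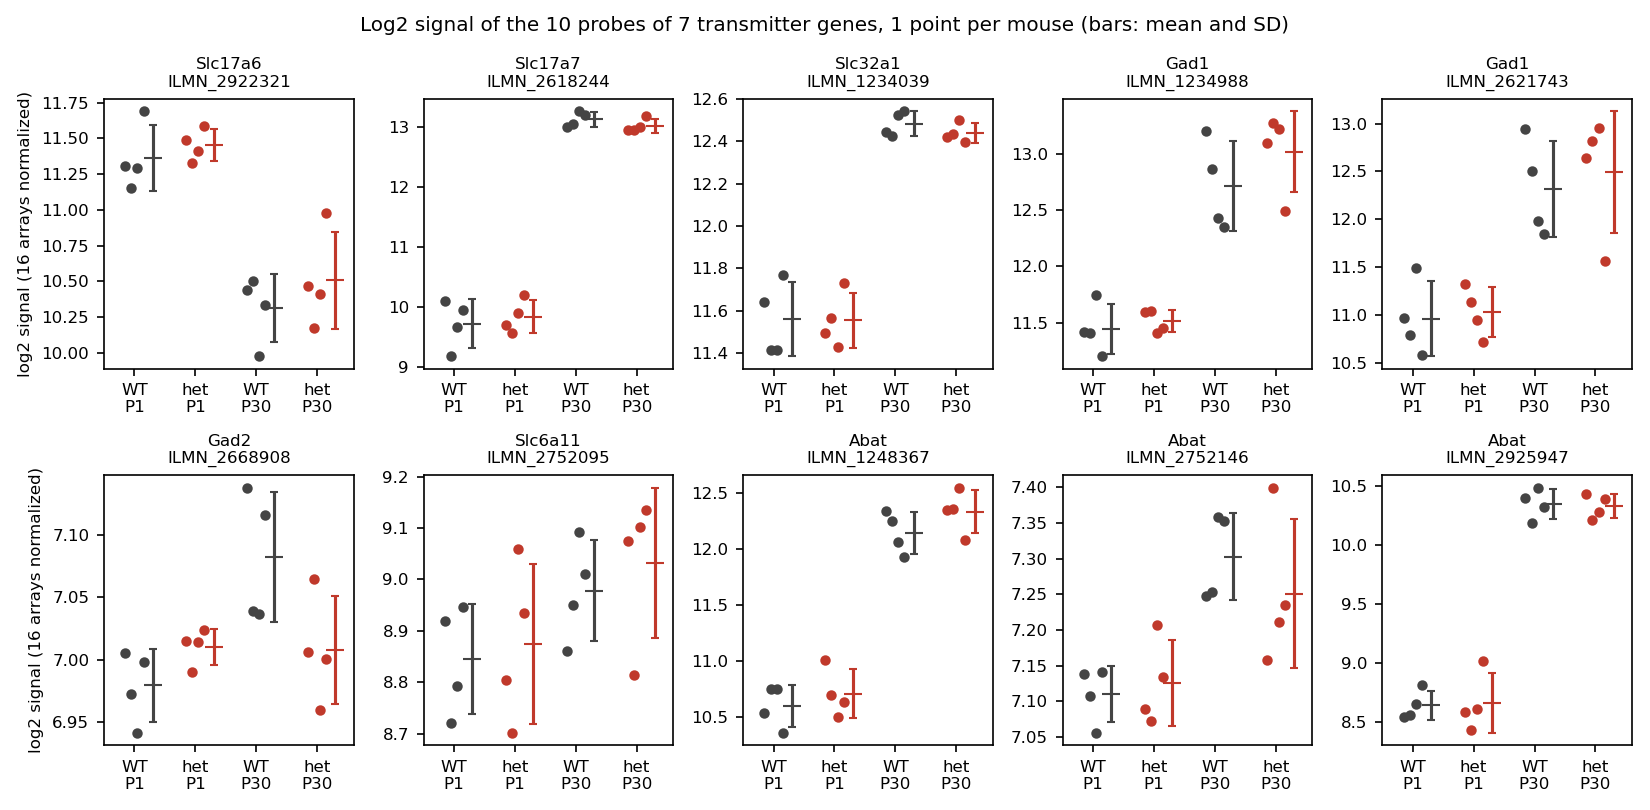
Log2 signal of each of the 10 probes (panels, each with its own vertical scale), with 1 point per mouse and the mean and SD beside each group of 4, after quantile normalization of all 16 arrays. *Slc17a7*, *Slc32a1*, both *Gad1* probes and 2 of the 3 *Abat* probes (ILMN_1248367 and ILMN_2925947) sit higher at P30, *Slc17a6* sits lower, and the genotypes overlap at each age in all of the tested probes.

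At P30 no member differed between the genotypes beyond the spread between mice. Of the 8 member probes 0 passed an adjusted p of 0.05 and 0 had an unadjusted p under 0.05 in limma, and in 0 of them were the *Mef2c*-het and WT arrays without overlap. Over all 13413 probes tested, 0.00746% (1 probe) passed the adjusted threshold, 316 had an unadjusted p under 0.05, and 1.75% had groups without overlap. The log2 fold changes of the members, *Mef2c*-het over WT, ran from -0.10 to 0.30 with a median of 0.12, against a median of -0.01 over all probes. The values below are log2 signals after quantile normalization of the arrays of that age, WT replicates 2, 3, 6 and 7 and *Mef2c*-het replicates 3, 5, 6 and 7 in this order.

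The vesicular transporter of inhibitory terminals, *Slc32a1*, read 12.45, 12.43, 12.54 and 12.55 in WT and 12.42, 12.44, 12.51 and 12.40 in *Mef2c*-het mice. The lowest value was that of a *Mef2c*-het mouse and the highest that of a WT mouse, but the groups overlapped. The log2 fold change was -0.05 (95% interval -0.18 to 0.09, standard error 0.059, adjusted p = 0.976 from limma, two-sided exact permutation test, p = 0.200). This was the narrowest interval among the members, and in fold terms it runs from 0.882 to 1.06 of the WT level. Leaving out *Mef2c*-het replicate 7 gave -0.03. The sign turned when the arrays were scaled to a common median, to a difference of 0.0044.

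*Slc17a7*, the vesicular glutamate transporter of mature hippocampal excitatory neurons, read 13.00, 13.05, 13.25 and 13.19 in WT and 12.95, 12.95, 13.00 and 13.17 in *Mef2c*-het mice. Most of the *Mef2c*-het values lay in the lower part of the range, and the fourth, that of replicate 7, lay among the higher WT values. The log2 fold change was -0.10 (standard error 0.080, 95% interval -0.28 to 0.08, exact permutation p = 0.200), or -0.15 without replicate 7. Within the larger cluster of arrays the difference was -0.06 and within the smaller -0.05.

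*Slc17a6* read 10.40, 10.47, 9.93 and 10.29 in WT and 10.43, 10.13, 10.38 and 10.95 in *Mef2c*-het mice. The array labelled *Mef2c*-het replicate 7 was above all other P30 arrays, and the other 3 *Mef2c*-het values lay within the WT range. The log2 fold change of 0.20 (standard error 0.17, 95% interval -0.19 to 0.59, exact permutation p = 0.429) fell to 0.04 without replicate 7. In the larger cluster, without that array, *Mef2c*-het minus WT was -0.12, and in the smaller cluster, where it was the only *Mef2c*-het array, it was 0.84. VGLUT2 is a transporter of thalamic neurons as well. The log2 of the summed signal of 8 thalamus markers was 10.99 on that array and 10.85 to 11.04 on the other 7 P30 arrays. Of this list *Gbx2*, *Synpo2* and *Plekhg1* were detected on none of the 16 arrays and *Lef1* on no P30 array, so that the sum is in part background. Whether thalamic tissue adds to the *Slc17a6* signal was not tested.

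*Gad1* was read by 2 probes whose values varied the most of the members at P30. ILMN_1234988 read 13.19, 12.87, 12.43 and 12.35 in WT and 13.09, 13.26, 13.20 and 12.50 in *Mef2c*-het mice. ILMN_2621743 read 12.95, 12.51, 11.97 and 11.84 in WT and 12.66, 12.83, 12.96 and 11.55 in *Mef2c*-het mice. With both probes the 3 lowest arrays were WT replicates 6 and 7 and *Mef2c*-het replicate 7, the arrays of the smaller cluster. The log2 fold changes were 0.30 (standard error 0.21, 95% interval -0.18 to 0.78, exact permutation p = 0.229) and 0.18 (standard error 0.33, 95% interval -0.55 to 0.92, exact permutation p = 0.686). Since the smaller cluster holds 2 WT arrays and 1 *Mef2c*-het array, the cluster and the genotype are partly confounded. With the cluster as a block the values were 0.14 (standard error 0.078) and -0.07 (standard error 0.11). Without *Mef2c*-het replicate 7, which leaves only WT arrays in the smaller cluster, they were 0.47 and 0.50, the highest of the values with 1 array left out. Without WT replicate 7 they were 0.18 and 0.021, the lowest. The part of the cluster in the *Gad1* signal was not tested beyond this block.

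*Abat*, which encodes the enzyme that degrades GABA, had 2 tested probes that did not vary alike. ILMN_1248367 read 12.34, 12.25, 12.05 and 11.91 in WT and 12.35, 12.37, 12.56 and 12.07 in *Mef2c*-het mice. ILMN_2925947 read 10.36, 10.15, 10.45 and 10.28 in WT and 10.40, 10.17, 10.24 and 10.36 in *Mef2c*-het mice. With the first, the arrays of the smaller cluster were again the 3 lowest, and with the second they were spread over the range. The log2 fold changes were 0.20 (standard error 0.12, 95% interval -0.07 to 0.47, exact permutation p = 0.143, and 0.29 without *Mef2c*-het replicate 7) and -0.02 (standard error 0.082, 95% interval -0.20 to 0.17, exact permutation p = 0.83, and -0.04 without it). With ILMN_1248367 the 3 *Mef2c*-het arrays other than replicate 7, all of the larger cluster, lay above all WT arrays, by 12.35 against 12.34 at the nearest. This split was made after seeing the data, and the share of all probes that it separates was not taken. The probe of *Slc6a11* read 8.83, 8.91, 9.05 and 8.97 in WT and 9.03, 8.78, 9.06 and 9.09 in *Mef2c*-het mice, a difference of 0.05 (95% interval -0.14 to 0.24, standard error 0.084, exact permutation p = 0.600), or 0.02 without *Mef2c*-het replicate 7. Adjusted p-values of the 8 member probes at P30 lay between 0.976 and 0.987 in limma.

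**Figure D2:**
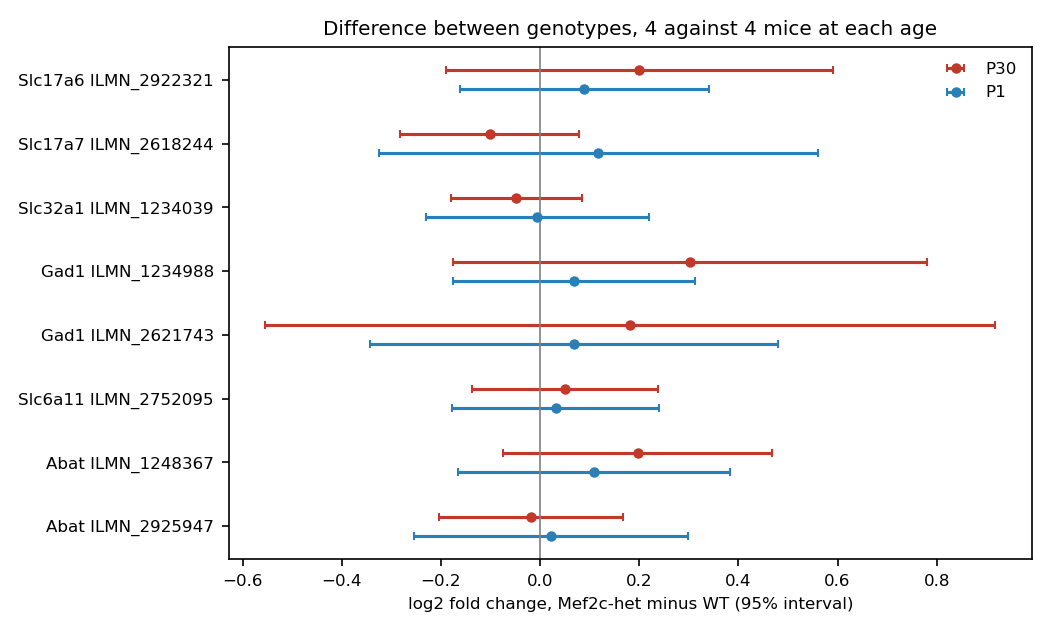
Log2 fold change, *Mef2c*-het minus WT, with its 95% interval from limma for each of the 8 tested probes at P30 (red) and at P1 (blue), 4 against 4 mice. All 16 intervals include 0, and those of *Slc32a1* and *Slc17a7* at P30 are among the narrowest while those of *Gad1* at P30 are the widest.

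At P1 no member differed between the genotypes beyond the spread between mice either. Of the 8 member probes 0 passed the adjusted threshold, 0 had an unadjusted p under 0.05 and 0 had groups without overlap. Over all 13566 probes tested, 0% passed the adjusted threshold, 220 had an unadjusted p under 0.05 in limma, and 1.29% had groups without overlap. The values at P1 are given for WT replicates 1, 4, 5 and 8 and *Mef2c*-het replicates 1, 2, 4 and 8. *Slc17a7* read 10.16, 9.23, 9.72 and 9.998 in WT and 9.76, 9.62, 9.95 and 10.24 in *Mef2c*-het mice, the widest spread of a vesicular transporter, with a difference of 0.12 (95% interval -0.32 to 0.56, standard error 0.20, exact permutation p = 0.714). *Slc17a6* read 11.32, 11.18, 11.31 and 11.70 in WT and 11.50, 11.35, 11.42 and 11.60 in *Mef2c*-het mice, with a difference of 0.09 (95% interval -0.16 to 0.34, exact permutation p = 0.457). *Slc32a1* read 11.65, 11.43, 11.43 and 11.78 in WT and 11.50, 11.58, 11.44 and 11.74 in *Mef2c*-het mice, a difference of -0.01 (95% interval -0.23 to 0.22, exact permutation p = 1). The *Mef2c*-het values of these vesicular transporters lay within the WT range, except for *Slc17a7* of replicate 8, which was the highest P1 array of that probe.

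The remaining probes at P1 gave log2 fold changes of 0.07 and 0.07 for *Gad1*, 0.11 and 0.02 for *Abat* and 0.03 for *Slc6a11*. *Gad1* ILMN_1234988 read 11.43, 11.42, 11.76 and 11.22 in WT and 11.60, 11.62, 11.42 and 11.46 in *Mef2c*-het mice. *Abat* ILMN_1248367 read 10.57, 10.78, 10.79 and 10.40 in WT and 11.04, 10.73, 10.54 and 10.67 in *Mef2c*-het mice. For both, the lowest array was WT replicate 8, which belongs to the smaller cluster. Read by *Xist* and Y-linked genes, 5 of the P1 mice were female (3 WT and 2 *Mef2c*-het) and 3 male, while all 8 P30 mice were male. With sex as a covariate 0 member probes passed the adjusted threshold at P1.

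For no member was a genotype effect detected that was unlike at P1 and P30. In the test of this difference over all 16 arrays, 0 of the 8 member probes passed the adjusted threshold and 0 had an unadjusted p under 0.05 in limma, where 0% of the 14777 probes tested passed and 438 had an unadjusted p under 0.05. The effect at P30 minus that at P1 was -0.23 for *Slc17a7* (standard error 0.23, 95% interval -0.72 to 0.27), 0.24 for *Gad1* ILMN_1234988 (standard error 0.26, 95% interval -0.32 to 0.80), 0.10 for *Slc17a6* (standard error 0.22) and -0.04 for *Slc32a1* (standard error 0.12, 95% interval -0.28 to 0.21). Without *Mef2c*-het P30 replicate 7 the values were 0.41 and 0.42 for the *Gad1* probes and -0.05 for *Slc17a6*, and none passed the adjusted threshold.

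Most members changed with age. Between P1 and P30, 7 of the 8 member probes changed in WT and 7 in *Mef2c*-het mice, 6 of them higher and 1 lower at P30 in each genotype, and each of these had groups without overlap. This has to be read against the whole array, on which 53.1% of the probes tested had age groups without overlap in WT and 52.5% in *Mef2c*-het mice, and on which 59.7% of the 14777 probes passed in WT (28% higher and 31.7% lower) and 58.3% in *Mef2c*-het mice (26.9% higher and 31.4% lower). The median log2 fold change of the 8 member probes was 1.31 in WT and 1.48 in *Mef2c*-het mice, against -0.03 and -0.02 over all probes tested. In bulk tissue fewer cells of a type and less RNA per cell cannot be told apart, and the P1 groups held both sexes while the P30 mice were male. Group means in the following are from all 16 arrays normalized together.

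The 2 vesicular glutamate transporters moved in opposite directions. *Slc17a7* rose from a mean log2 signal of 9.73 ± 0.41 (SD, n = 4) at P1 to 13.13 ± 0.12 (SD, n = 4) at P30 in WT, and from 9.84 ± 0.27 (SD, n = 4) to 13.02 ± 0.11 (SD, n = 4) in *Mef2c*-het mice. The rise was 10.6-fold in WT (95% interval 8.30 to 13.5, adjusted p = 2.91e-11 from limma) and 9.03-fold in *Mef2c*-het mice (95% interval 7.10 to 11.5, adjusted p = 7.25e-11 from limma). Its change lay at the 99.7th percentile of all probes tested in WT. *Slc17a6* fell from 11.36 ± 0.23 (SD, n = 4) to 10.31 ± 0.24 (SD, n = 4) in WT and from 11.45 ± 0.11 (SD, n = 4) to 10.51 ± 0.34 (SD, n = 4) in *Mef2c*-het mice. These are changes to 0.484 of the P1 level in WT (95% interval 0.385 to 0.607, adjusted p = 2.00e-05 from limma) and to 0.519 in *Mef2c*-het mice (95% interval 0.414 to 0.653, adjusted p = 6.03e-05 from limma). The highest P30 array, *Mef2c*-het replicate 7 at 10.98, was still below the lowest P1 array, WT replicate 4 at 11.16.

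*Slc32a1*, *Gad1* and *Abat* of the GABA pathway rose in both genotypes. *Slc32a1* went from 11.56 ± 0.18 (SD, n = 4) to 12.48 ± 0.058 (SD, n = 4) in WT, a 1.90-fold rise (95% interval 1.68 to 2.14, adjusted p = 5.08e-08 from limma), and was 1.85 times as high at P30 in *Mef2c*-het mice. *Gad1* rose 2.41-fold with ILMN_1234988 and 2.56-fold with ILMN_2621743 in WT, and 2.84-fold and 2.75-fold in *Mef2c*-het mice. *Abat* rose 2.92-fold with ILMN_1248367 and 3.27-fold with ILMN_2925947 in WT, and 3.09-fold and 3.19-fold in *Mef2c*-het mice. The probes of *Abat* that varied unlike each other between mice of 1 age thus both rose between the ages. For each of these 7 probes an exact permutation test gave p = 0.0286 in each genotype, the smallest that 4 against 4 arrays allow. The astrocyte transporter *Slc6a11* stood apart from the other members. Its mean log2 signal was 8.84 ± 0.11 (SD, n = 4) at P1 and 8.98 ± 0.098 (SD, n = 4) at P30 in WT, a log2 fold change of 0.13 (95% interval -0.06 to 0.32, adjusted p = 0.212 from limma), and 0.16 in *Mef2c*-het mice (95% interval -0.03 to 0.35, adjusted p = 0.145 from limma). The groups overlapped, and the call in *Mef2c*-het mice was not stable: under cyclic loess the value was 0.24 with an adjusted p of 0.0221, and without *Mef2c*-het P30 replicate 5 it was 0.23 with an adjusted p of 0.0343.

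**Figure D3:**
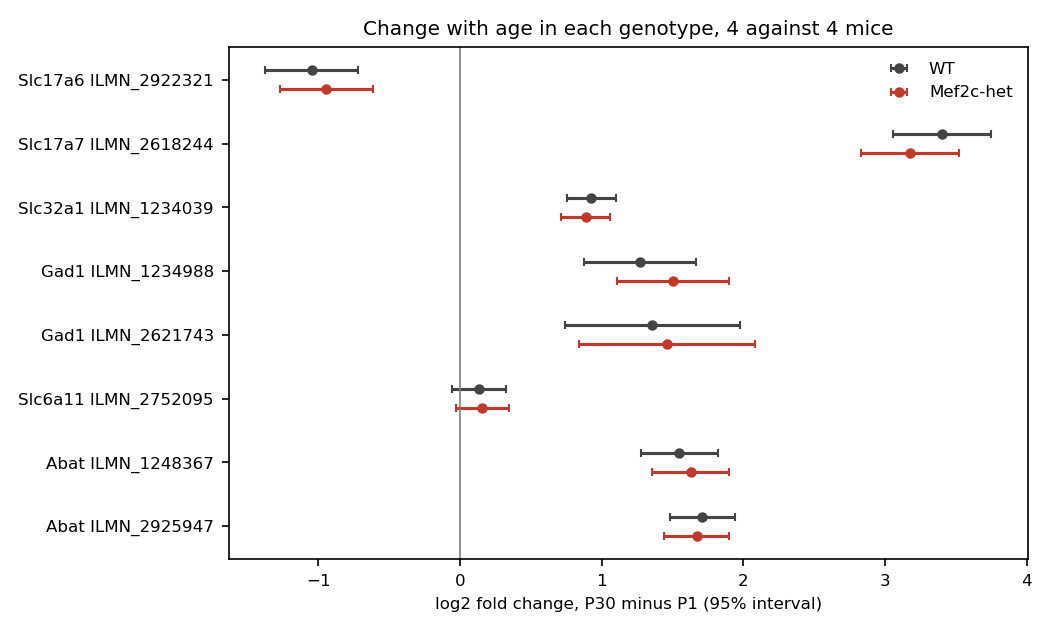
Log2 fold change, P30 minus P1, with its 95% interval from limma for each of the 8 tested probes in WT (grey) and *Mef2c*-het mice (red), 4 against 4 mice each. The points of *Slc17a7* lie at 3.40 and 3.18, those of *Slc17a6* at -1.05 and -0.94, and the intervals of *Slc6a11* include 0 in both genotypes.

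The order of the 4 groups was set by age in the 7 probes that changed. For *Slc17a7* the means ran from WT P1 (9.73) over *Mef2c*-het P1 (9.84) and *Mef2c*-het P30 (13.02) to WT P30 (13.13), and for *Slc32a1* from *Mef2c*-het P1 (11.55) over WT P1 (11.56) and *Mef2c*-het P30 (12.44) to WT P30 (12.48). For *Slc17a6* they ran from WT P30 (10.31) over *Mef2c*-het P30 (10.51) and WT P1 (11.36) to *Mef2c*-het P1 (11.45). Neighbours of the same age overlapped, and neighbours of different age did not.

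Within an array, the log2 signal of *Slc17a7* minus that of *Slc32a1* was taken as a measure in which the scaling of the array cancels. Since 2 probes differ in how they bind, its sign has no meaning and only its difference between groups is read. It was 0.63 ± 0.067 in the 4 WT and 0.58 ± 0.13 in the 4 *Mef2c*-het mice at P30 (mean ± SD), and -1.79 ± 0.30 and -1.67 ± 0.22 at P1. Single arrays at P30 gave 0.55, 0.62, 0.71 and 0.64 in WT and 0.53, 0.51, 0.49 and 0.77 in *Mef2c*-het mice. In the latter, 3 of 4 arrays lay below all WT arrays and replicate 7 lay above all of them. The log2 signal of *Slc17a6* minus that of *Slc32a1* was -2.22 ± 0.29 in WT and -1.97 ± 0.37 in *Mef2c*-het mice at P30, and -0.19 ± 0.12 and -0.10 ± 0.11 at P1 (mean ± SD over 4 mice). Over all arrays the means of the genotypes differed by less than the larger of the 2 SDs at each age. For *Slc17a7* minus *Slc32a1* at P30 this rested on *Mef2c*-het replicate 7. Without it, an alternative chosen after seeing the data, *Slc17a7* minus *Slc32a1* was 0.49 to 0.53 in *Mef2c*-het mice, below all WT arrays, and differed from WT by -0.12 in place of -0.05. *Slc17a6* minus *Slc32a1* then differed from WT by 0.073 in place of 0.25, and the groups overlapped. All *Mef2c*-het arrays left without replicate 7 are of the larger cluster, where *Slc17a7* minus *Slc32a1* was 0.55 and 0.62 in WT. In the WT arrays of the smaller cluster it was 0.71 and 0.64. These values carry no test.

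**Figure D4:**
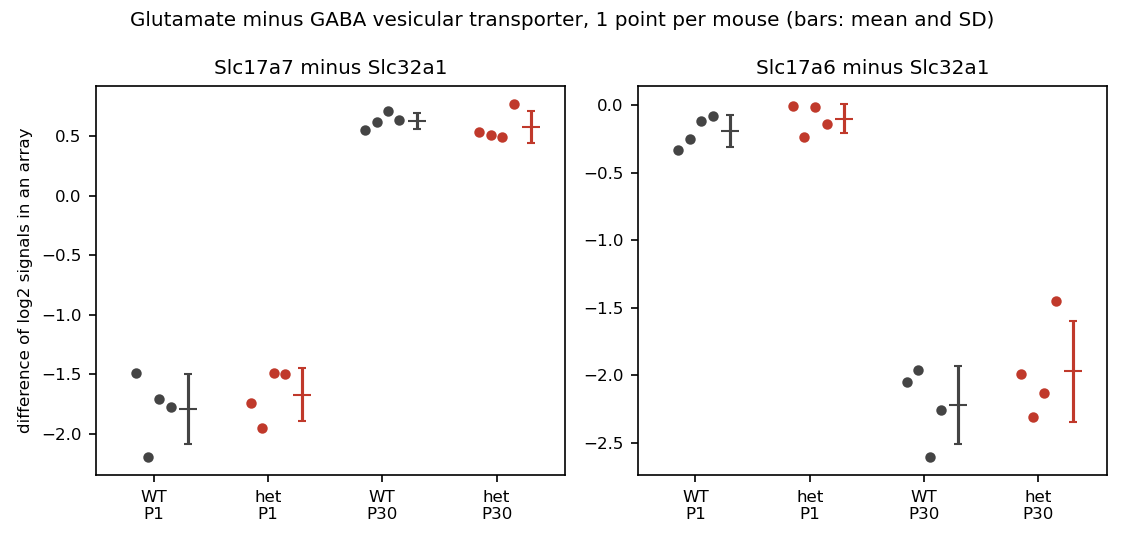
Log2 signal of *Slc17a7* (left) and of *Slc17a6* (right) minus that of *Slc32a1* in the same array, with 1 point per mouse and the mean and SD of each group of 4. The age groups lie apart and the genotypes overlap, with *Mef2c*-het replicate 7 the highest P30 point in both panels.

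Among mice of 1 group the members did not vary as a unit. After the group means were removed, the 2 *Gad1* probes had a Pearson r of 0.97 over the 16 arrays, and *Abat* ILMN_1248367 had r of 0.80 and 0.82 with them. The other *Abat* probe had r of -0.32 with ILMN_1248367 and of -0.30 and -0.37 with the *Gad1* probes, and of 0.55 with *Slc17a7* and 0.51 with *Slc32a1*. *Slc32a1*, which shares its cells with *Gad1*, had r of -0.30 and -0.31 with the *Gad1* probes and of 0.66 with *Slc17a7*. These coefficients describe arrays that share their normalization and fall into clusters, and no p is given. In the larger and the smaller cluster at P30 the means were 13.12 and 12.43 for *Gad1* ILMN_1234988, 12.78 and 11.79 for ILMN_2621743, and 12.37 and 12.01 for *Abat* ILMN_1248367. The corresponding means were 12.45 and 12.50 for *Slc32a1*, 12.99 and 13.21 for *Slc17a7*, and 10.26 and 10.36 for *Abat* ILMN_2925947.

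**Figure D5:**
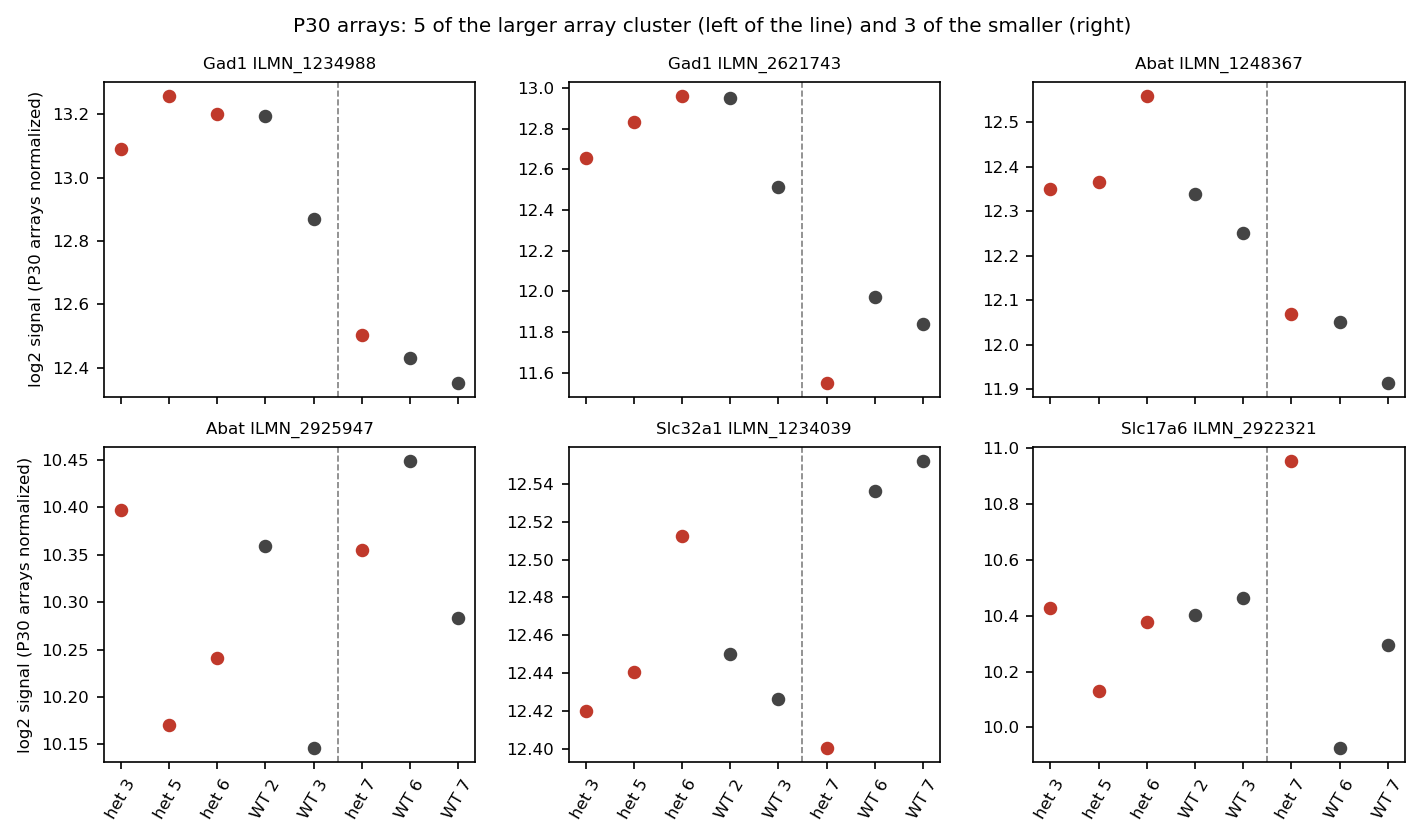
Log2 signal on each of the 8 P30 arrays for 6 probes (panels, each with its own vertical scale), WT in black and *Mef2c*-het in red, with the 5 arrays of the larger cluster left and the 3 of the smaller cluster right of the dashed line. Both *Gad1* probes and *Abat* ILMN_1248367 are lower on the 3 arrays of the smaller cluster, whereas *Slc32a1* and *Abat* ILMN_2925947 are not.

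The genes whose log2 signal was most like that of a member over the 16 arrays are given with their Pearson r, which is dominated by the difference between the ages. For *Slc17a7* they were *Camk2a*, a kinase subunit of excitatory synapses, and *Napg*, both with r = 0.998. For *Slc17a6* they were *Mycbp* (r = 0.972) and *Kif23* (r = 0.968), for *Slc32a1* *Rgs8* (r = 0.993) and *Luzp1* (r = 0.992), for *Gad1* *Sec14l2* (r = 0.990) and *Ghitm* (r = 0.987), and for *Abat* *Lrrn1* (r = 0.991) and *Adcy9* (r = 0.989). For *Slc6a11*, which did not pass the test with age, they were *Cyc1* (r = 0.876) and *Gphn* (r = 0.849), the gene of the scaffold protein gephyrin of inhibitory synapses.

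A list of 24 other genes of transmitter synthesis, uptake and recycling had probes for 23. Of its probes 0 passed the adjusted threshold for genotype, and 0 had an unadjusted p under 0.05 in limma, among 28 probes at P30 and 26 at P1. Of these probes only *Gls2* ILMN_2762640, of the liver-type glutaminase, had groups without overlap, at P1, with 7.29, 7.46, 7.46 and 7.40 in WT and 7.53, 7.53, 7.49 and 7.62 in *Mef2c*-het mice, a difference of 0.14 (95% interval -0.01 to 0.29, exact permutation p = 0.0286, adjusted p = 0.9998 from limma). Groups of 4 against 4 arrays without overlap always give this permutation p, and 1.29% of all probes tested at P1 had such groups. The second *Gls2* probe, ILMN_2840975, gave 0.01. The signal of ILMN_2762640 is close to background at P1, where 1 of the 4 WT arrays had a detection p above 0.05. With age, 14 of 29 probes of the list were higher and 4 lower at P30 in WT, and 15 higher and 3 lower in *Mef2c*-het mice. The 18 probes called in each genotype are a share near that of all probes, 59.7% in WT and 58.3% in *Mef2c*-het mice. The largest rises in WT were those of the astrocyte glutamate transporter gene *Slc1a2* (8.45-fold with ILMN_3076439 and 5.51-fold with ILMN_3123195), *Gls2* (a log2 fold change of 1.68 with ILMN_2762640, and of 3.15 after normexp background correction, since its P1 signal is near background) and the mitochondrial glutamate carrier gene *Slc25a18* (3.02-fold). The largest falls were those of the glutamine transporter gene *Slc38a5* (to 0.228 of the P1 level) and the neutral amino acid transporter gene *Slc1a4* (to 0.387). *Slc38a2* ILMN_2955671 had the third lowest value by gene, a log2 fold change of -0.72, but with a standard error of 0.50 it did not pass the test (adjusted p = 0.231 from limma), its sign turned with sex as a covariate, and when the cluster of the arrays entered the fit the value was -0.35 and passed (adjusted p = 0.0397 from limma). The second probe of this gene, ILMN_1244123, fell to 0.729 of the P1 level (adjusted p = 0.00945 from limma). In the test of the genotype effect at P30 against P1, 0 of the 29 probes passed the adjusted threshold in limma and 2 had an unadjusted p under 0.05, among them *Slc1a3* of the astrocyte glutamate transporter GLAST (-0.21).

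Markers of the cells that use these genes are given beside the age changes, whose dependence on cell numbers was not tested. Of 10 tested interneuron markers 5 rose and 4 fell in each genotype. *Pvalb* was not above background on the WT P1 arrays and was at least 30.4-fold higher at P30, taken against the lowest detected signal of each P1 array. *Vip* rose by 2.35 on the log2 scale in WT and *Sst* by 1.31, while *Reln* fell by 2.07, *Dlx1* by 1.47 and *Calb2* by 1.25. The log2 of the summed signal of the 13 interneuron markers on the array was 15.01 to 15.22 at P1 and 14.98 to 15.22 at P30, and *Lhx6* was detected on none of the arrays. This sum weighs strong genes most, and its like values at the ages hide opposite changes. In WT the mean log2 signals at P1 and P30 were 13.70 and 11.63 for *Reln* and 12.87 and 11.62 for *Calb2*. They were 11.95 and 13.06 for *Cck* and 11.60 and 12.91 for *Sst*. The sum is thus no measure of interneuron number. The sum of 10 markers of hippocampal excitatory neurons was 12.50 to 12.85 at P1 and 14.84 to 15.01 at P30, with *Camk2a* higher by 3.93 and *Nrgn* by 2.56 on the log2 scale in WT, although of 9 tested markers 4 rose and 4 fell. The sum of 10 astrocyte markers was 13.72 to 13.98 at P1 and 15.26 to 15.49 at P30, and 9 of these 10 rose in each genotype. The sum of 7 Cajal-Retzius markers, cells that express VGLUT2 and are lost after birth, was 13.65 to 14.01 at P1 and 11.71 to 12.00 at P30, and all 4 that were tested fell. *Reln*, which the interneuron list holds as well, made up 91.7% to 93.2% of this sum at P1 and 75.5% to 80.6% at P30, where it was the only detected marker of the list. Sums were 10.85 to 11.06 at P1 and 10.87 to 11.07 at P30 for thalamus markers, 10.33 to 10.63 and 10.98 to 11.17 for striatum, 13.25 to 13.81 and 12.81 to 13.52 for meninges, and 10.96 to 14.94 and 10.18 to 14.43 for choroid plexus, whose amount varied the most between arrays of 1 age.

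Between the genotypes 0 of the tested markers of these lists passed the adjusted threshold at either age. Of the 10 interneuron markers tested at P30, *Calb2* (log2 fold change 0.19), *Vip* (0.45), *Nxph1* (0.14) and *Reln* (-0.21) had an unadjusted p under 0.05 in limma, and at P1 no marker of this list did. Over all 13413 probes tested at P30, 316 had such a p. The *Calb2* value is from ILMN_2827729, and a second tested *Calb2* probe, ILMN_2597412, gave 0.18 with an unadjusted p of 0.137 in limma. The summed signal of the interneuron markers was 14.97 to 15.11 in WT and 15.06 to 15.21 in *Mef2c*-het mice at P30, beside the *Slc32a1*, *Gad1* and *Abat* values given for these mice. Over all arrays the genotypes overlapped. In a split made after seeing the data, the *Mef2c*-het arrays other than replicate 7 read 15.16 to 15.21, above all WT arrays, and replicate 7 read 15.06. All of the former are of the larger cluster, where WT replicates 2 and 3 read 15.05 and 15.11. The part of this sum in the member values was not tested.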

How the data were processed

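Hippocampal RNA of 16 mice was hybridised to MouseRef-8 v2 beadchips. The deposited table holds, per probe and array, an intensity on a linear scale that is not normalized, a detection p-value, the number of beads and the standard error over beads. Whether background had been subtracted from the intensity by the authors is not given in the sources used here. The submitters' processing notes name lumi and limma. Every sample column matched a sample title, with 0 columns left over. The bead count deposited per probe was used as depth, and the number of arrays limits the precision.

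Probes were named through RefSeq by Entrez number or, failing that, by accession, symbol or unique synonym (25376 of 25697 by any of these), and 321 kept the table's symbol. Log2 intensities were quantile normalized and fitted with limma 3.58.1 in R 4.3.3 (lmFit, eBayes, two-sided, Benjamini-Hochberg over all probes tested, threshold 0.05). A probe was tested where 4 or more arrays of the fit had a detection p below 0.05. Genotypes were compared within the 8 arrays of an age, and ages and the difference of the genotype effect in all 16. Single probes were also compared by an exact permutation test (70 ways to divide 8 arrays). Sex was read from *Xist* and Y-linked genes. Arrays of an age were clustered on 1 minus Pearson r (average linkage) into 2 clusters. A cell type's summed signal is the log2 of the sum over 1 probe per marker gene. All probes of members were named, and of the other 24 transmitter genes the 3 largest rises and falls with age in WT and any without overlap between genotypes. Some genes of this list are not reported here by name. Likeness was taken over genes' probes by Pearson r, the 2 highest per member. The members and lists (interneurons, excitatory neurons, astrocytes, Cajal-Retzius cells, thalamus, striatum, meninges and choroid plexus) were chosen with earlier results of these data known. Alternatives were other background and scaling methods, other filters, cluster, sex and replicate number in the fit, and each array left out. The fitting code was tested on simulated data.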

Additional observations from a re-analysis of the deposited data

How the results depend on the processing

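No member passed the adjusted threshold for genotype at P30 or P1, or for the difference between ages, under any alternative run, and the count was 0 throughout. The count with age was 7 to 9 in WT and 7 to 8 in *Mef2c*-het mice. In WT *Slc6a11* passed under no alternative. Counts above 7 there came from the *Gad2* probe and *Abat* ILMN_2752146, which enter only without the detection filter. Both are near background, so that these calls are not read as changes of the genes. Of 728 recomputed values of member probes 676 kept direction and call, 0 lost a call and 50 turned in sign, none of them among the 256 with age. The call of *Slc6a11* with age in *Mef2c*-het mice was gained under cyclic loess and without *Mef2c*-het P30 replicate 5. For signs that turned the cause was not tested. At P30 *Abat* ILMN_2925947 was 0.021 under median scaling, 0.0064 under cyclic loess, 0.0070 with the array cluster as block and 0.039 with the replicate block, *Gad1* ILMN_2621743 was -0.071 with the cluster, and *Slc32a1* was 0.0044 under median scaling. At P1 *Abat* ILMN_2925947 was -0.021 with sex, *Slc32a1* 0.0039 under median scaling and *Mef2c* ILMN_2732465 0.00023 with the replicate block. The difference between ages was 0.0072, 0.0040 and 0.016 for *Abat* ILMN_2925947 (median scaling, sex, cluster), -0.081 for *Gad1* ILMN_2621743 (cluster), and 0.00048 and 0.017 for *Slc32a1* (median scaling, sex). With age *Slc38a2* ILMN_2955671 was 0.028 in WT and 0.28 in *Mef2c*-het mice with sex as covariate.

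Leaving out 1 array at a time gave, at P30, -0.073 to 0.028 for *Abat* ILMN_2925947. At P1 it gave -0.10 to 0.099 for *Abat* ILMN_2925947, -0.0083 to 0.17 and -0.055 to 0.24 for *Gad1* ILMN_1234988 and ILMN_2621743, -0.032 to 0.089 for *Slc6a11*, -0.064 to 0.24 for *Slc17a7*, -0.065 to 0.062 for *Slc32a1*, and -0.045 to 0.16 and -0.079 to 0.12 for *Mef2c* ILMN_2887992 and ILMN_2732465. For the difference between ages it gave -0.12 to 0.081 for *Abat* ILMN_2925947, -0.073 to 0.42 for *Gad1* ILMN_2621743, -0.054 to 0.21 for *Slc17a6*, -0.11 to 0.019 for *Slc32a1* and -0.034 to 0.096 for *Slc6a11*. For *Slc38a2* with age in *Mef2c*-het mice it gave -0.57 to 0.21.

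Over all probes, counted after seeing the data, 1 probe passed at P30, and 0 did under normexp, median scaling, cyclic loess and the replicate block and without each of 7 arrays. At P1 0 passed, and 1 did with the cluster, 2 with all 16 arrays fitted together and 3 with the replicate block. With the replicate block 0 members were called at either age. Same-numbered arrays deviated together with r of 0.19, -0.53 and 0.71 at P30 and 0.090, 0.40 and 0.83 at P1, and not every array correlated best with its own number, so that the numbers were not taken to pair the mice. Sex could not be fitted at P30, where all mice were male. With 4 mice a group, the interval of each member gives the change that could have been missed.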
